A study of Homo sapiens with 10 samples.

Results

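The fatty acid synthesis enzymes are 10 genes: FASN, ACACA, ACLY, SCD, ELOVL6, FADS1, FADS2, ACSS2, ME1 and THRSP. The rule that picks them is a list of symbols and uses no measured value, and all 10 were found among the 58302 genes by their Ensembl identifiers. RNA-Seq of human liver cancer cell lines gave 10 libraries, 1 per condition. They belong to a study of how PSPC1, a nuclear RNA-binding protein of paraspeckles, interacts with the tyrosine kinase PTK6 and with beta-catenin, and of where these proteins lie in the cell.

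Of the SK-hep1 cells, 5 libraries were made: a mock control and cells overexpressing PSPC1, PSPC1 with PTK6 (PSPC1/PTK6), PSPC1-Y523F, or PSPC1-Y523F with PTK6 (PSPC1-Y523F/PTK6). As the paper describes it, Y523F replaces the tyrosine of PSPC1 that PTK6 phosphorylates, and the labels call it only the YF mutation. The source labels of the 3 Mahlavu libraries give a mock control, the C-terminal of PSPC1, and an NLS (nuclear localization sequence) mutation of PSPC1. The last 2 are called PSPC1-CT131 and Mut-NLS-CT131 here, after constructs that the paper describes in Mahlavu cells. Below, a library labelled with either name is the one with that source label. The source label of the mutant does not say that it is the C-terminal fragment. The 2 Huh-7 libraries came from untreated cells and from cells given 10 ng/ml HGF, hepatocyte growth factor, for 48 h. The proteins were expressed from transfected plasmids in SK-hep1 cells, which the paper describes as deficient in PSPC1. The methods describe selected clones for the animal experiments, and whether the sequenced cultures were such clones is not given in the sources used here. With 1 library per condition no difference below has a replicate check, no p-value is given, and the intervals cover counting error only.

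Cells build fatty acids from acetyl-CoA. ACLY makes it in the cytosol from citrate and ACSS2 makes it from acetate. ACACA converts acetyl-CoA to malonyl-CoA, FASN joins malonyl units into palmitate with NADPH that malic enzyme ME1 helps to provide, ELOVL6 lengthens palmitate, SCD inserts the first double bond, and FADS1 and FADS2 desaturate polyunsaturated chains. The liver is a main site of this pathway, and many of its genes are known targets of the transcription factors SREBP-1 (gene SREBF1), SREBP-2 (SREBF2), ChREBP (MLXIPL) and LXR-alpha (NR1H3). ME1 is known also as a target of NRF2, which binds antioxidant response elements, and THRSP is a thyroid hormone-responsive partner of the pathway.

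RefSeq promoter windows for GRCh38.p14 matched 9 of the 10 genes, all but FASN, in 14 windows of the 250 bases before an annotated start site. Those of SCD, ACSS2 and ELOVL6 are shown as examples of the members at a lower level in the PSPC1-Y523F than in the PSPC1 library, which include ACACA, ACLY and FADS1 as well, and that of ME1 is shown because it reached 1 FPKM in SK-hep1 cells only with PTK6. Each is given 5′ to 3′ on the strand of its gene, with capitals marking CCAAT in SCD, GGGCGG on either strand in ACSS2 and ELOVL6, and TGACNNNGC, the core of the antioxidant response element, in ME1.
SCD, chr10:100346983-100347232, + strand: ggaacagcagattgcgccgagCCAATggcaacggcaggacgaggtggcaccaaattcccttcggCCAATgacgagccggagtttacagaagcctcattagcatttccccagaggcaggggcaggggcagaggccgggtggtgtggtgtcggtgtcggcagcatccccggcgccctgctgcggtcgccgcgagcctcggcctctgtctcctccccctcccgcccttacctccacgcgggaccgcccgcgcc
ACSS2, chr20:34876362-34876611, + strand: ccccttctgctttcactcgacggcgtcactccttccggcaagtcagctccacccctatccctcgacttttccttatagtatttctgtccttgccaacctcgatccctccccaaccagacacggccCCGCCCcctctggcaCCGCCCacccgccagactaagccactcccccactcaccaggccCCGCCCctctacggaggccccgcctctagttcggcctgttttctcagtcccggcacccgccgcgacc
ELOVL6, chr4:110198616-110198865, - strand: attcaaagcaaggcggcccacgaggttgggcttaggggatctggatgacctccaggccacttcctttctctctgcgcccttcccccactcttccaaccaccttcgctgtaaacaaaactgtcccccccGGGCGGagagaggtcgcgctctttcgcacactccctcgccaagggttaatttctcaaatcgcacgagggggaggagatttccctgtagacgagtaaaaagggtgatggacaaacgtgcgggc
ME1, chr6:83431052-83431301, - strand: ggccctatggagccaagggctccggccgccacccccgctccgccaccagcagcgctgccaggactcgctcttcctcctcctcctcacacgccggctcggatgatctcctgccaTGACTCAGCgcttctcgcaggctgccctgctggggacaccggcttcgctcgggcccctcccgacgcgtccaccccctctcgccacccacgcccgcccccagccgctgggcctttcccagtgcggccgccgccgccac

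The motifs were searched on both strands, and overlapping matches were kept. CCAAT was found in 7 of the 14 windows, which belong to 5 genes, while 32.0% of all 35116 windows of the same length hold it. GGGCGG was found in 11 of the 14, which belong to 8 genes, against 42.6% of all windows. Windows of 1 gene can overlap, as those of ACLY and FADS2 do. TGACNNNGC was found in 1 window, that of ME1, 137 bases before its start site, against 10.9% of all windows. The sterol regulatory element TCACNCCAC and the E-box CACGTG were found in none of the 14 windows, against 0.883% and 6.34% of all. A match describes letters and is not shown to be a bound site, and a missing match covers these windows only. The 4 windows reach into the spans that the deposited tables give these genes, which begin upstream of the RefSeq starts used, and ACSS2 has a second window, with CCAAT, not shown.

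Depth was 15245935 to 24278662 reads on genes. PSPC1, the gene overexpressed in SK-hep1 cells, had 0 reads in mock, 209 with PSPC1, 930 with PSPC1/PTK6, 71 with PSPC1-Y523F and 2539 with PSPC1-Y523F/PTK6. PTK6 had 277, 307, 1060, 230 and 679 reads in the same order and was higher in both libraries with PTK6. In Mahlavu cells PSPC1 was at 47.3 FPKM in mock, 30.8 in the library labelled PSPC1-CT131 and 22.5 in that labelled Mut-NLS-CT131, so the overexpression was not seen at the level of the whole gene. FPKM is the number of reads scaled for the length of the gene and the reads of the library. PTK6 was at 8.95, 17.2 and 17.3 FPKM in these 3 libraries. All 12 hepatocyte markers reached 1 FPKM in Huh-7 cells. SERPINA1 was the only one of them to do so in SK-hep1 and Mahlavu cells, where ALB, TF, TTR and FGB were at 0. The summed FPKM of the 12 was 34119 to 34458 in Huh-7 and 8.13 to 42.4 in the other libraries. The endothelial markers summed to 1.43 to 6.98 FPKM and the adipocyte markers, with ADIPOQ and LEP at 0 throughout, to 0.316 to 4.85 FPKM. The fibroblast and stellate markers summed to 41.7 to 346 FPKM, with COL3A1 at 79.3 to 287 FPKM in SK-hep1 cells, and the blood markers to 6.07 to 446 FPKM, mostly CD14 or, in Huh-7, LYZ.

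In bulk RNA, fewer expressing cells and less RNA per cell cannot be told apart. The 10 genes took up 0.545% of the reads in SK-hep1 mock, 0.400% in Mahlavu mock and 1.00% in untreated Huh-7. FASN held 67.0% of the reads of the 10 genes in SK-hep1 mock, 22.7% in Mahlavu mock and 27.2% in untreated Huh-7. The FASN gene lies on chromosome 17 at 82078333 to 82098332 (GRCh38, minus strand, identifier ENSG00000169710), and ranked 33 among all genes by FPKM in SK-hep1 mock, 172 in Mahlavu mock and 38 in untreated Huh-7. ACACA (ENSG00000278540) and ACLY (ENSG00000131473) lie on the same chromosome, FADS1 (ENSG00000149485), FADS2 (ENSG00000134824) and THRSP (ENSG00000151365) on chromosome 11, and SCD (ENSG00000099194), ELOVL6 (ENSG00000170522), ACSS2 (ENSG00000131069) and ME1 (ENSG00000065833) on chromosomes 10, 4, 20 and 6.

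**Figure D1:**
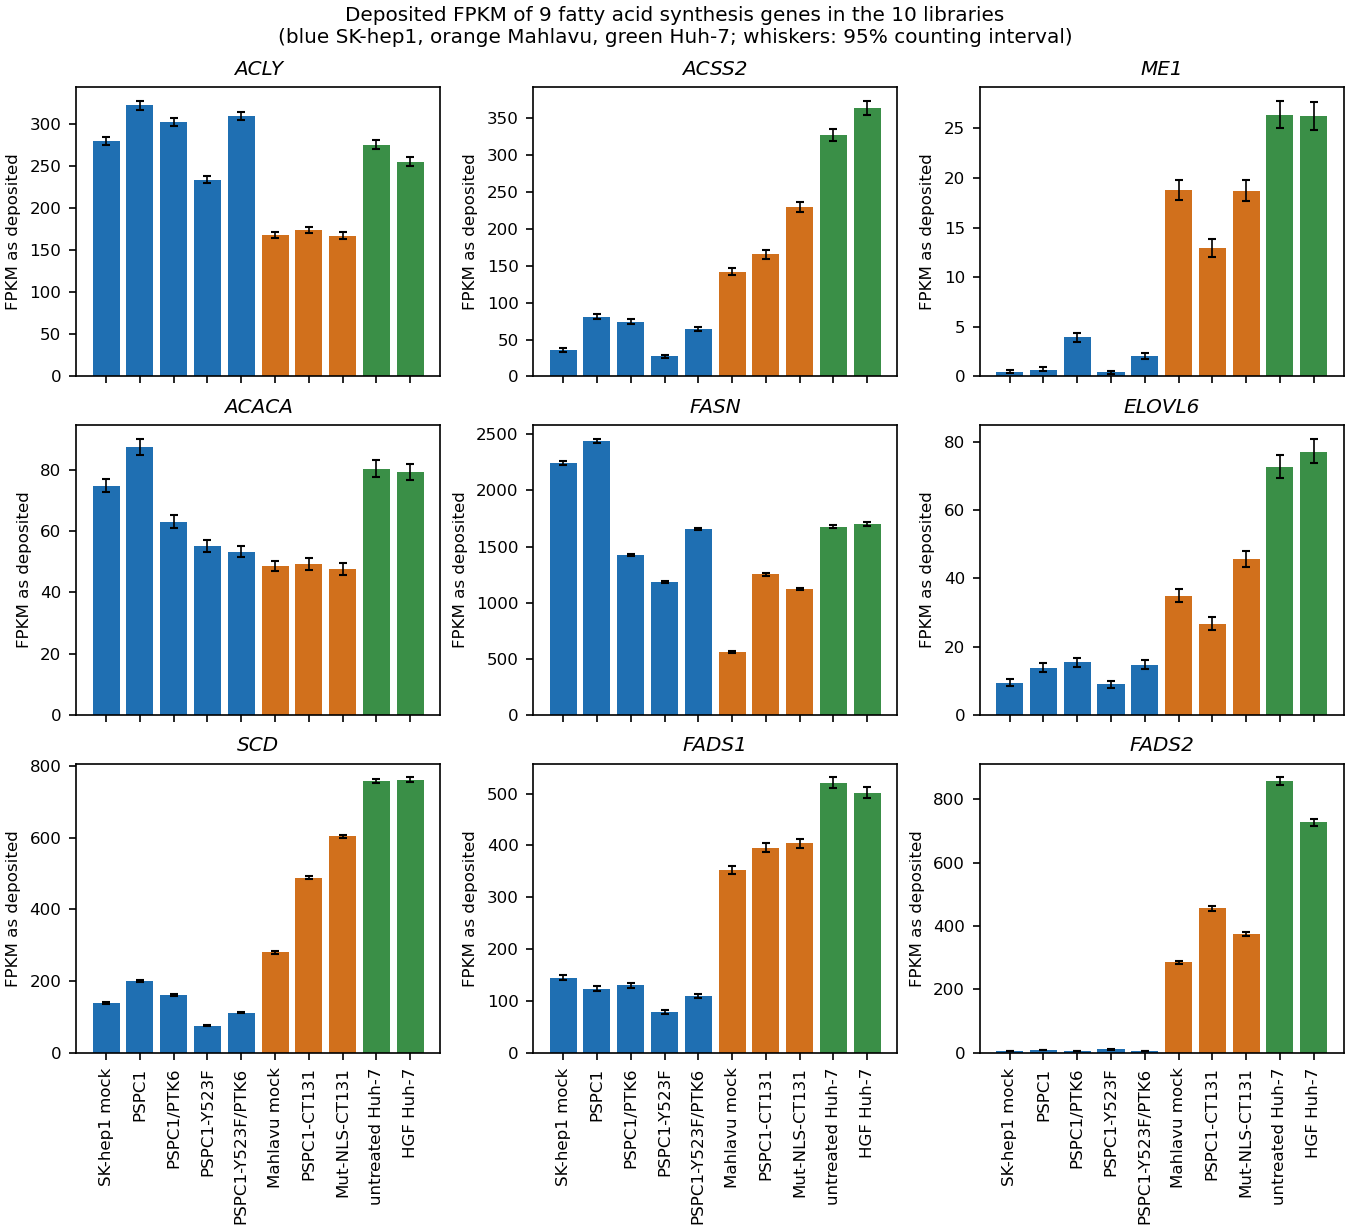
Bars give the FPKM as deposited (vertical axes, from 0) of 9 of the 10 genes in each of the 10 libraries (horizontal axes), and whiskers the exact 95% Poisson interval of the read count. FADS2 was at 5.67 to 11.4 FPKM in SK-hep1 cells and at 286 to 857 FPKM in the other lines, and ACSS2 was lowest in PSPC1-Y523F.

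The enzymes that supply acetyl-CoA and NADPH differed most in ME1 and ACSS2. ACLY was at 279 FPKM in SK-hep1 mock, 322 with PSPC1, 302 with PSPC1/PTK6, 234 with PSPC1-Y523F and 309 with PSPC1-Y523F/PTK6. It was at 168, 174 and 167 FPKM in the Mahlavu libraries labelled mock, PSPC1-CT131 and Mut-NLS-CT131, and at 275 and 255 FPKM in untreated and HGF-treated Huh-7 cells. ACLY, the citrate-cleaving enzyme, was low in PSPC1-Y523F among the SK-hep1 libraries. The FPKM of ACSS2 was 35.7 in SK-hep1 mock, 81.2 with PSPC1, 74.4 with PSPC1/PTK6, 27.3 with PSPC1-Y523F and 64.5 with PSPC1-Y523F/PTK6. The Mahlavu values were 142, 165 and 229 and the Huh-7 values 327 and 364. The PSPC1 and both PTK6 libraries were high among the SK-hep1 libraries and the mock and PSPC1-Y523F libraries were low. ME1 had only 35 reads in SK-hep1 mock, 47 in PSPC1 and 29 in PSPC1-Y523F, but 317 in PSPC1/PTK6 and 165 in PSPC1-Y523F/PTK6. These are 0.479, 0.689, 0.408, 3.94 and 2.02 FPKM, while Mahlavu cells had 12.9 to 18.8 FPKM and Huh-7 cells 26.2 to 26.4. In SK-hep1 cells only the 2 libraries with PTK6 were thus above 1 FPKM.

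The chain is built by ACACA and FASN. ACACA, the rate-limiting step of the pathway, was at 74.9 FPKM in SK-hep1 mock, 87.5 with PSPC1, 63.2 with PSPC1/PTK6, 55.3 with PSPC1-Y523F and 53.3 with PSPC1-Y523F/PTK6. It was at 48.6, 49.3 and 47.6 FPKM in Mahlavu cells and at 80.5 and 79.3 in Huh-7 cells. FASN was at 2244 FPKM in SK-hep1 mock, 2440 with PSPC1, 1424 with PSPC1/PTK6, 1185 with PSPC1-Y523F and 1656 with PSPC1-Y523F/PTK6. Mock and PSPC1 were the high libraries for both genes. In Mahlavu cells FASN was at 559 FPKM in mock, 1251 in the library labelled PSPC1-CT131 and 1122 in that labelled Mut-NLS-CT131, and in Huh-7 cells at 1677 and 1700. ELOVL6, the elongase of saturated chains, was at 9.39 FPKM in SK-hep1 mock, 13.8 with PSPC1, 15.3 with PSPC1/PTK6, 8.89 with PSPC1-Y523F and 14.7 with PSPC1-Y523F/PTK6, the same split of high and low libraries as for ACSS2. It was at 34.9, 26.7 and 45.7 FPKM in Mahlavu cells and at 72.8 and 77.3 in Huh-7 cells.

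Of the desaturases, SCD was at 139 FPKM in SK-hep1 mock, 202 with PSPC1, 161 with PSPC1/PTK6, 75.3 with PSPC1-Y523F and 112 with PSPC1-Y523F/PTK6. The Mahlavu values of SCD were 280, 488 and 604 FPKM and the Huh-7 values 757 and 762. PSPC1-Y523F was the lowest library in SK-hep1 cells, and mock was the lowest in Mahlavu cells. FADS1 was at 145 FPKM in SK-hep1 mock, 123 with PSPC1, 130 with PSPC1/PTK6, 79.1 with PSPC1-Y523F and 110 with PSPC1-Y523F/PTK6, at 353, 396 and 404 in Mahlavu cells and at 520 and 502 in Huh-7 cells. FADS2, which lies beside FADS1 on chromosome 11, was at 6.52, 8.82, 5.67, 11.4 and 5.88 FPKM in the same order of SK-hep1 libraries, at 286, 456 and 375 in Mahlavu cells and at 857 and 728 in Huh-7 cells. Of the SK-hep1 libraries, PSPC1-Y523F was thus the lowest for FADS1 and the highest for FADS2. FADS1 and FADS2 lie on opposite strands and share 490 exon bases, 4.79% of those of FADS1, and the kit is not stated to keep the strand, so reads there cannot be told apart. THRSP had 0 reads in 7 libraries and 1 read in Mahlavu mock, Mut-NLS-CT131 and HGF-treated Huh-7, and a count of 0 allows up to 3 reads, which is 0.105 to 0.168 FPKM across the 10 libraries.

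The order of levels between genes depended on the length that the FPKM uses. The deposited FPKM divide by the mean length of the annotated transcripts of a gene, 1627 bases for FASN, while the tables list 8565 bases. SCD and ME1 have 1 annotated transcript and the same length in both. As deposited, FASN was the highest of the 10 in every library. Divided by the listed length, FASN was at 106 FPKM in Mahlavu mock and 319 in untreated Huh-7, and SCD at 280 and 757 FPKM was the highest there, whereas in SK-hep1 mock FASN at 426 FPKM stayed above SCD at 139. The ratio of the deposited FPKM of 1 gene between 2 libraries does not depend on the length. The differences given below can depend on it, since they use quantile normalization, an added 1 and a minimum of 1 FPKM. The added 1 and the minimum matter most for low genes.

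**Figure D2:**
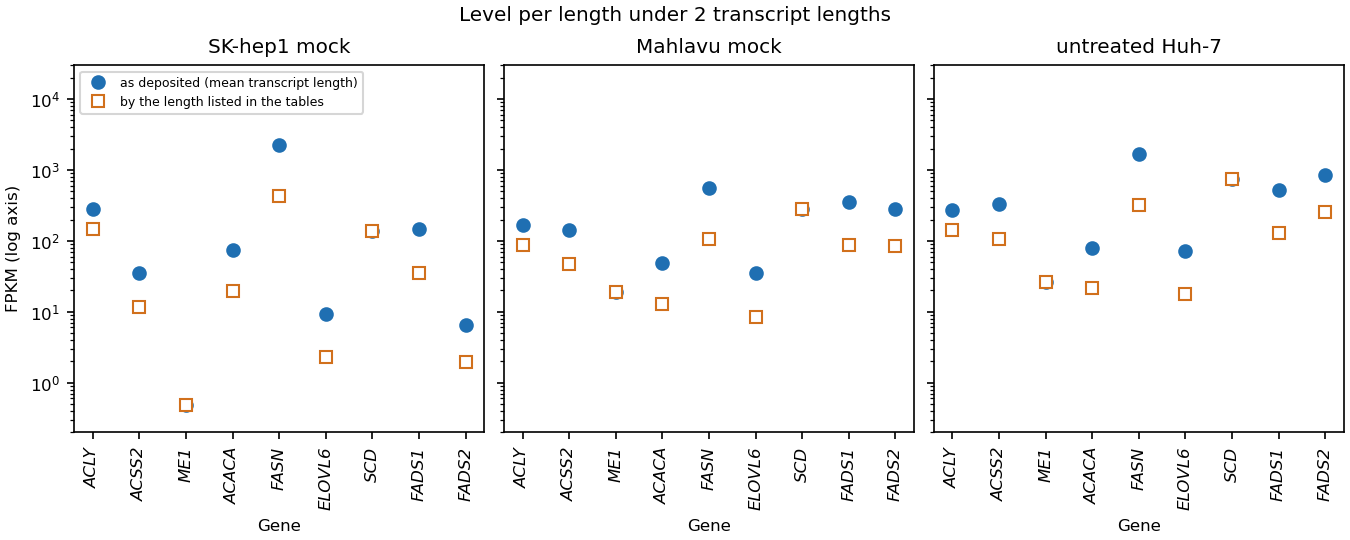
Points give the FPKM (vertical axis, log scale) of 9 genes (horizontal axes) in 1 control library of each cell line, as deposited and recomputed with the length listed in the tables. FASN moved most, since its listed length is 5.26 times the length used, and SCD and ME1 did not move.

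Between the lines, SK-hep1 mock was higher than Mahlavu mock in FASN, ACACA and ACLY and lower in the other members compared. Differences are given from here on between log2(quantile-normalized FPKM + 1) values, and a gene is counted when it differs by at least 1.5-fold on that scale and the 2 libraries have a mean of at least 1 FPKM. FASN differed by 1.63 on the log2 scale (95% counting interval 1.61 to 1.66), ACACA by 0.86 (0.79 to 0.92) and ACLY by 0.69 (0.66 to 0.73). FADS2 was 35.8-fold lower in SK-hep1 mock, with a difference of -5.16 (-5.34 to -4.99), and ME1 was lower by -3.21 (-3.41 to -2.98). ACSS2, FADS1, ELOVL6 and SCD differed by -1.82, -1.39, -1.37 and -1.08. In all, 3 of 9 were higher and 6 lower, where 28.7% of 12862 genes were higher and 27% lower. The median of the 9 was -1.37 and that of all genes 0.04. ACACA at 0.57 with FPKM scaled to the same sum, ACLY at 0.54 with GC content and length taken out, and SCD at -0.57 with TMM-scaled counts were then no longer counted.

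In PSPC1 cells against mock, ACSS2 was the member that rose. Its values were 85.9 against 38.1 quantile-normalized FPKM, a 2.22-fold difference of 1.15 on the log2 scale (1.03 to 1.27), at percentile 97.5 among the genes compared. SCD at 0.55 (0.52 to 0.58) and ELOVL6 at 0.53 (0.33 to 0.72) lay just under the threshold of 0.58. FASN differed by 0.05, ACLY by 0.16, ACACA by 0.25, FADS2 by 0.42 and FADS1 by -0.19. Thus 1 of 8 was at least 1.5-fold higher and 0 lower, where 9.57% of 12411 genes were higher and 8.66% lower. The median of the 8 was 0.34 and that of all genes -0.03. THRSP was under the minimum of 1 FPKM in every comparison, and ME1 in those of PSPC1 and PSPC1-Y523F with mock and with each other. ELOVL6 was counted too, at 0.59, with TMM-scaled counts and with GC content and length taken out.

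With PSPC1/PTK6 against mock, the members parted. ACSS2 was 1.93-fold higher, by 0.95 (0.83 to 1.07), and ME1 2.68-fold higher, by 1.42 (1.16 to 1.66). FASN differed by -0.52 (-0.54 to -0.51) and FADS2 by -0.47, both under the threshold. FASN passed it as lower in 5 alternatives, at -0.66 with FPKM as deposited and -0.83 with TMM-scaled counts. ELOVL6 differed by 0.40, and by 0.65 with FPKM as deposited. SCD differed by 0.24, ACLY by 0.19, FADS1 by -0.11 and ACACA by -0.29. The counts of 2 higher and 0 lower of 9 stand beside 12.4% and 12.8% of 12436 genes, and the medians were 0.19 over the 9 and -0.04 over all genes. ME1 is a low gene, and with a pseudocount of 5 its difference of 0.58 was under the threshold. With TMM-scaled counts its difference was 2.83, so its size depended strongly on the setting. The fibroblast and stellate markers summed to 346 FPKM in the PSPC1/PTK6 library and 182 FPKM in mock. COL3A1 made up most of both sums, at 287 and 139 FPKM, while COL1A1 went the other way, at 9.90 and 15.4 FPKM. The part of these markers in the member values was not tested.

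In PSPC1-Y523F cells against mock, 3 members fell and 1 rose. FADS1 was lower by -0.83 (-0.91 to -0.75), SCD by -0.81 (-0.85 to -0.78) and FASN by -0.72 (-0.73 to -0.70). FADS2 was higher by 0.76 (0.54 to 0.99), from 7.53 to 13.5 quantile-normalized FPKM. The others were ACACA at -0.39, ACSS2 at -0.33, ACLY at -0.26 and ELOVL6 at 0.02. Of all 12382 genes, 9.33% were higher and 9.33% lower, and the median of the 8 members was -0.36 beside -0.01 over all genes. FADS2 was under the threshold, at 0.56, with a pseudocount of 5.

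With PSPC1-Y523F/PTK6 against mock, the 3 members that fell in PSPC1-Y523F lay nearer to mock. FASN differed by -0.33, FADS1 by -0.35 and SCD by -0.26, and ACACA by -0.40. The members that rose were ME1 by 1.15 (0.88 to 1.40), ACSS2 by 0.85 (0.73 to 0.97) and ELOVL6 by 0.68 (0.50 to 0.87). ACLY and FADS2 differed by 0.14 and 0.01. These 3 higher and 0 lower of 9 stand beside 8.19% and 7.1% of 12412 genes, and the median of the 9 was 0.01. ME1 and ELOVL6 were under the threshold at 0.45 and 0.54 with a pseudocount of 5, and FASN passed it at -0.66 with GC content and length taken out. With TMM-scaled counts ME1 was at 2.18.

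**Figure D3:**
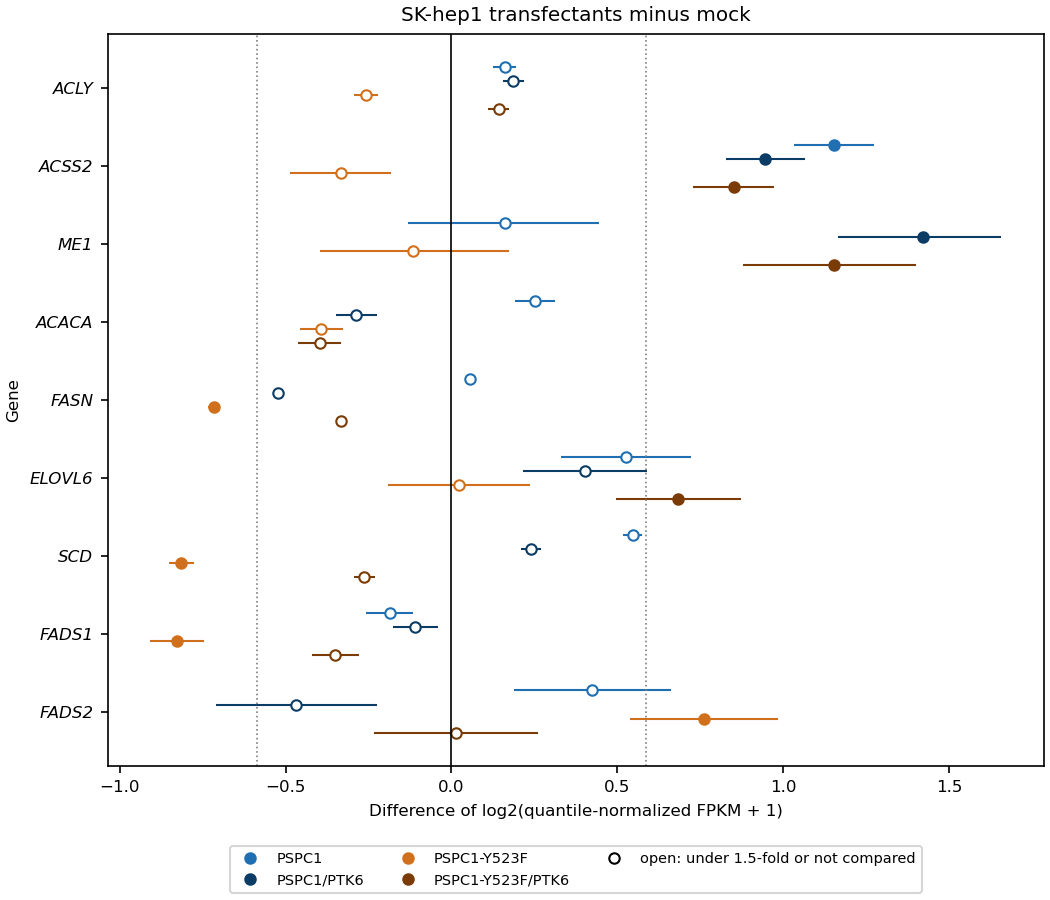
Points give the difference of log2(quantile-normalized FPKM + 1) (horizontal axis) of 9 genes (vertical axis) between each SK-hep1 transfectant and mock, and lines the 95% counting interval. Dotted lines mark 1.5-fold and filled points pass it with a mean of at least 1 FPKM; ACSS2 lies right of the threshold in 3 of 4 transfectants, and FASN, SCD and FADS1 lie left of it in PSPC1-Y523F.

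The comparison of PSPC1-Y523F with PSPC1, both without PTK6, asks what the mutation of the phosphorylated tyrosine changes. Of the 8 members compared, 7 were below 0 and 5 fell. ACSS2 was 2.80-fold lower, by -1.49 (-1.62 to -1.35), and SCD 2.57-fold lower, by -1.36 (-1.40 to -1.32). These are percentiles 0.654 and 0.848 among the genes compared. FASN differed by -0.77, ACACA by -0.64 and FADS1 by -0.64, and these 3 were counted. ELOVL6 at -0.50, ACLY at -0.42 and FADS2 at 0.34 were not. Thus 0 of 8 were higher and 5 lower, where 8.77% of 12389 genes were higher and 9.23% lower, and the medians were -0.64 over the 8 members and 0.01 over all genes. PSPC1 itself was at 71 reads in PSPC1-Y523F and 209 in PSPC1, and the part of this difference in the result was not tested. The 5 stood in every alternative that kept the 1.5-fold threshold, and ELOVL6 joined them at -0.65 with TMM-scaled counts.

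Of the same members with PTK6 present, PSPC1-Y523F/PTK6 differed from PSPC1/PTK6 by -0.50 in SCD, 0.48 in FADS2, 0.28 in ELOVL6, -0.27 in ME1 and -0.24 in FADS1. FASN, ACACA, ACSS2 and ACLY differed by 0.19, -0.11, -0.10 and -0.04. No member reached 1.5-fold, where 11.8% of 12429 genes were higher and 11.3% lower, and the median of the 9 was -0.10. PSPC1 itself was at 2539 reads in PSPC1-Y523F/PTK6 and 930 in PSPC1/PTK6, the reverse of the order without PTK6. The part of this difference in the result was not tested. ME1 passed the threshold as lower, at -0.71, with FPKM as deposited, and SCD at -0.67 with GC content and length taken out. The signs of FASN, ACACA, ACSS2, ACLY, ELOVL6 and FADS1 depended on the setting. FASN was at -0.06 with GC content and length taken out and at 0.53 with TMM-scaled counts. The differences of this pair had a Spearman rho of 0.30 with GC content across 12420 genes.

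The addition of PTK6 can be followed on PSPC1 and on PSPC1-Y523F, in comparisons that share no library. ME1 rose in both, by 1.26 (1.009 to 1.498) and by 1.27 (1.00 to 1.51), and FADS2 fell in both, by -0.89 (-1.12 to -0.66) and by -0.75 (-0.97 to -0.52). ACSS2 differed by -0.21 (-0.30 to -0.11) with PTK6 on PSPC1 and rose by 1.18 (1.05 to 1.32) with PTK6 on PSPC1-Y523F. ELOVL6 differed by -0.12 (-0.29 to 0.05) on PSPC1 and rose by 0.66 (0.47 to 0.86) on PSPC1-Y523F. FASN differed by -0.58 (-0.59 to -0.56) and 0.38 (0.37 to 0.40), and SCD by -0.31 (-0.33 to -0.28) and 0.55 (0.51 to 0.59). ACACA differed by -0.54 and -0.01, ACLY by 0.03 and 0.40, and FADS1 by 0.08 and 0.48. On PSPC1, 1 of 9 members was higher and 1 lower, where 8.09% of 12391 genes were higher and 7.34% lower. On PSPC1-Y523F, 3 were higher and 1 lower, where 10.4% of 12398 genes were higher and 9.28% lower. The medians of the 9 were -0.21 and 0.48.

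The second difference minus the first was 1.39 for ACSS2, 0.96 for FASN, 0.86 for SCD and 0.79 for ELOVL6, at percentiles 98.4, 95.6, 94.3 and 93.2 of 12443 genes. It was 0.01 for ME1, at percentile 51.6. Opposite signs were seen in 4 of the 9 members, ACSS2, FASN, SCD and ELOVL6, and in 39.3% of all genes. The counting interval of ELOVL6 on PSPC1 included 0, and with FPKM scaled to the same sum ELOVL6 was at 0.15 there. PSPC1 rose with PTK6 in both pairs, from 7.01 to 26.4 FPKM and from 2.28 to 70.9 FPKM, and its part in these differences was not tested. FADS2 on PSPC1 was under the threshold at -0.56 with FPKM as deposited and FADS2 and ELOVL6 on PSPC1-Y523F at -0.55 and 0.52 with a pseudocount of 5. ME1 was under it in both pairs with that pseudocount, at 0.54 and 0.48, and was at 2.28 and 2.39 with TMM-scaled counts. FASN on PSPC1, at -0.58, passed the threshold in 4 alternatives, at -0.99 with TMM-scaled counts. The differences with PTK6 on PSPC1 had a Spearman rho of -0.31 with GC content across 12380 genes. With GC content and length taken out, FASN was at -0.47 on PSPC1 and 0.24 on PSPC1-Y523F, and SCD at -0.12 and 0.72. On PSPC1-Y523F, FASN, SCD and FADS1 passed the threshold with TMM-scaled counts, at 0.60, 0.69 and 0.59.

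**Figure D4:**
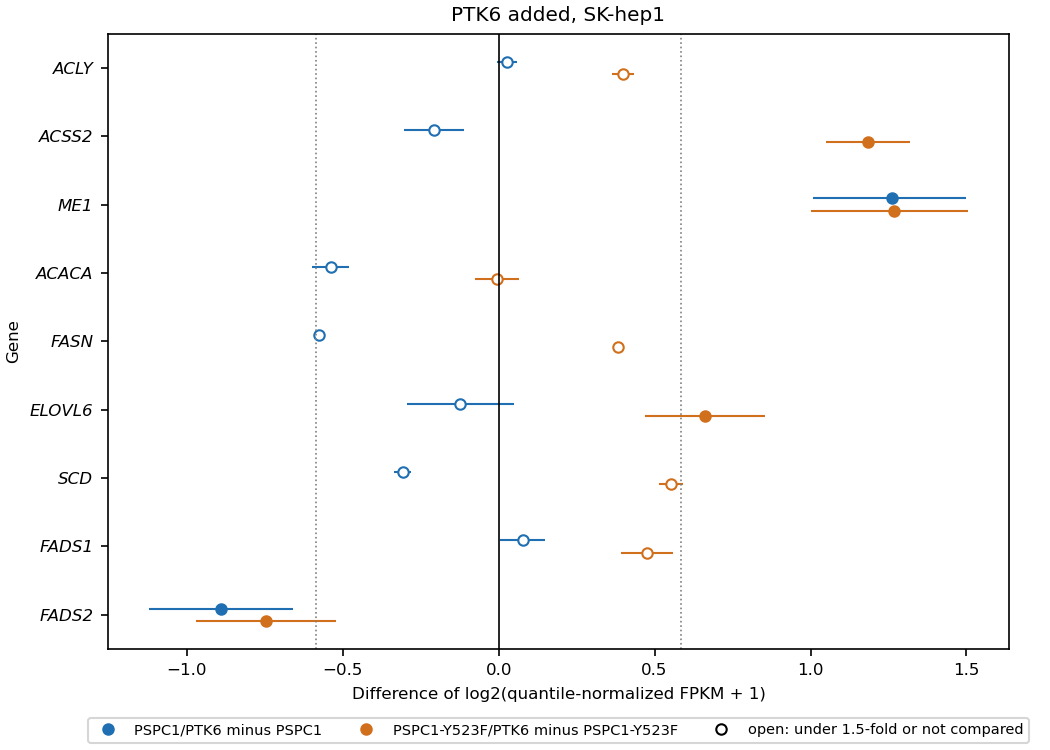
Points give the difference of log2(quantile-normalized FPKM + 1) (horizontal axis) of 9 genes (vertical axis) when PTK6 was added to PSPC1 or to PSPC1-Y523F, with 95% counting intervals and dotted lines at 1.5-fold. ME1 lies on the right and FADS2 on the left in both, while ACSS2, FASN and SCD lie on opposite sides of 0.

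In Mahlavu cells, FASN and SCD were higher in both transfectants than in mock. In the library labelled PSPC1-CT131, FASN was 2.23-fold higher, by 1.15 (1.13 to 1.18), and SCD 1.65-fold higher, by 0.72 (0.70 to 0.74). FADS2 at 0.58 (0.54 to 0.61) was 1.49-fold higher, just under the threshold, and passed it at 0.67 with FPKM as deposited and 0.97 with TMM-scaled counts. The other members were ACSS2 at 0.22, ACACA at 0.18, FADS1 at 0.07, ACLY at -0.00, ELOVL6 at -0.15 and ME1 at -0.19. Thus 2 of 9 were higher and 0 lower, where 11.2% of 12415 genes were higher and 12.3% lower, and the median of the 9 was 0.18. The differences of this library rose with the GC content of a gene's transcripts, with Spearman's rho of 0.57 across 12402 genes, and FASN transcripts have 65.3% GC. With GC content and length taken out, FASN was higher by 0.75 and SCD by 0.61. PSPC1 was lower and PTK6 higher than in mock in both transfectants, as given above, and their part was not tested.

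With Mut-NLS-CT131 as the label, FASN was 2.30-fold higher than in mock, by 1.20 (1.18 to 1.23), SCD 2.11-fold higher, by 1.08 (1.06 to 1.10), and ACSS2 1.68-fold higher, by 0.75 (0.68 to 0.81). ELOVL6 at 0.46, FADS2 at 0.36, FADS1 at 0.15 (0.11 to 0.20), ME1 at 0.09, ACACA at 0.01 and ACLY at -0.05 were under the threshold. The counts of 3 higher and 0 lower of 9 stand beside 11.1% and 11.3% of 12425 genes, with a median of 0.36 over the 9. All 3 stood in every alternative that kept the 1.5-fold threshold. The rank correlation with GC content was -0.10 here. Both transfectants were compared with the same mock library, so its low FASN value enters both.

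The libraries labelled PSPC1-CT131 and Mut-NLS-CT131 may differ in more than the nuclear localization sequence, since the mutant's source label does not name the C-terminal fragment. PSPC1 itself had 899 and 632 reads in them, and the part of this difference was not tested. Between these libraries, FASN differed by -0.05 (-0.07 to -0.03). The sign of the FASN difference depended on the setting. It was 0.30 with TMM-scaled counts and -0.50 with GC content and length taken out. SCD differed by -0.36, ACSS2 by -0.52 and ME1 by -0.28. ELOVL6 was lower by -0.61 (-0.74 to -0.49) in the library labelled PSPC1-CT131 and was the 1 member counted of 9. Of all 12453 genes, 14.9% were higher and 15.2% lower, and the median of the 9 was -0.08. ELOVL6 was under the threshold at -0.55 with a pseudocount of 5 and at -0.27 with GC content and length taken out, where ACSS2 passed it at -0.72. The rank correlation with GC content was 0.57 across 12440 genes.

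With HGF in Huh-7 cells, FADS2 was the member that differed most, by -0.24 (-0.27 to -0.21), and ACSS2 came next at 0.18 (0.12 to 0.23). ACLY and ELOVL6 differed by -0.09 and 0.09, FADS1 by -0.07, and SCD, ACACA, FASN and ME1 by 0.02 or less in size. No member of 9 reached 1.5-fold, where 1.81% of 14262 genes were higher and 1.45% lower, and the median of the 9 was -0.01. The counting intervals of FASN, ACACA, ELOVL6 and ME1 included 0.

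**Figure D5:**
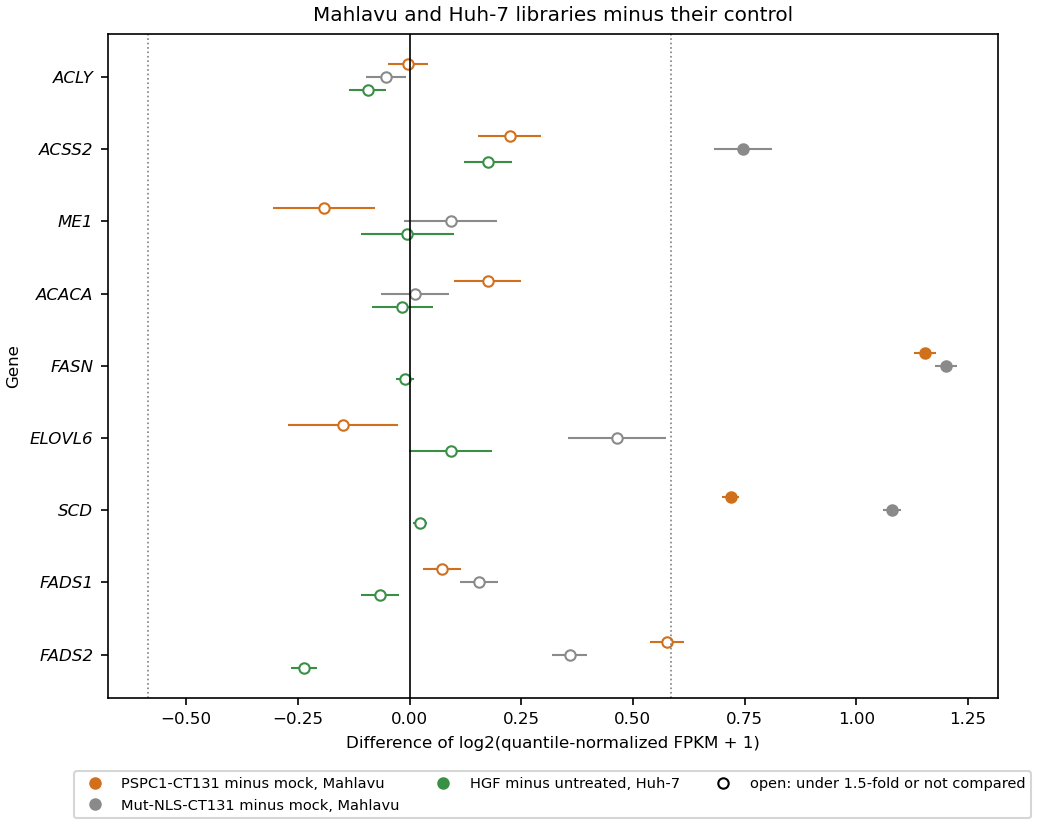
Points give the difference of log2(quantile-normalized FPKM + 1) (horizontal axis) of 9 genes (vertical axis) between the Mahlavu libraries labelled PSPC1-CT131 or Mut-NLS-CT131 and mock, and between HGF-treated and untreated Huh-7 cells, with 95% counting intervals and dotted lines at 1.5-fold. FASN and SCD pass the threshold in both Mahlavu comparisons, and no gene does in Huh-7.

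Of the regulators of the pathway, SREBF1 was highest in mock among the SK-hep1 libraries. It was at 551 FPKM in mock, 488 with PSPC1, 398 with PSPC1/PTK6, 491 with PSPC1-Y523F and 380 with PSPC1-Y523F/PTK6. Its Mahlavu values were 357 FPKM in mock, 770 in the library labelled PSPC1-CT131 and 267 in that labelled Mut-NLS-CT131. SREBF2 was at 80.6, 136, 101, 73.2 and 99.4 FPKM in the SK-hep1 order. PSPC1 was its highest library and PSPC1-Y523F its lowest. INSIG1, which retains the SREBP complex in the endoplasmic reticulum and is itself a known SREBP target, was at 45.8, 91.5, 86.9, 32.2 and 45.0 FPKM. NR1H3 was at 7.97, 17.2, 17.6, 10.6 and 17.7 FPKM and was higher than mock by 1.02 in PSPC1 and 1.12 in PSPC1-Y523F/PTK6. MLXIPL had at most 8 reads in SK-hep1 cells and was at 19.4 and 25.3 FPKM in Huh-7 cells. PPARGC1B, a coactivator of SREBP-1, was at 2.05 to 3.92 FPKM in SK-hep1 cells.

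Of the 18 regulators, 5 were higher and 1 lower in PSPC1, 3 and 2 in PSPC1/PTK6, 0 and 0 in PSPC1-Y523F, 3 and 1 in PSPC1-Y523F/PTK6, 2 and 0 in the library labelled PSPC1-CT131, 2 and 1 in that labelled Mut-NLS-CT131, and 0 and 0 with HGF, each against its control. Of the list 17 or 18 were compared, with medians of -0.01 to 0.20, where the medians of all genes were -0.04 to 0.01. Of all genes, 8.19% to 12.4% were higher and 7.1% to 12.8% lower in the comparisons with mock. With HGF 1.81% were higher and 1.45% lower. These shares stand beside the counts against control of the further lists below as well. NFYA, a subunit of the factor that binds CCAAT, was lower by -0.75 in PSPC1/PTK6 and -0.65 in PSPC1-Y523F/PTK6. PPARG, the adipogenic receptor, was higher by 1.30 and its partner RXRA lower by -0.73 with Mut-NLS-CT131 as the label.

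The 15 genes of substrate and NADPH supply were counted as higher and lower in 2 and 0, 1 and 0, 2 and 3, 2 and 1, 2 and 1, 1 and 0, and 0 and 0 cases in the same order of comparisons, with 14 or 15 compared and medians of -0.26 to 0.13. SLC25A1, the mitochondrial citrate carrier, was at 323, 439, 343, 269 and 477 FPKM in the SK-hep1 libraries. IDH1 was lower by -0.81 and ACO1 higher by 0.88 in PSPC1-Y523F. In Mahlavu cells TKT was higher by 0.66 and 1.26 in the libraries labelled PSPC1-CT131 and Mut-NLS-CT131, and PDHA1 lower by -0.74 in the first.

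Of the 22 other enzymes of synthesis, elongation and desaturation, 1 was higher and 4 lower in PSPC1, 2 and 4 in PSPC1/PTK6, 0 and 3 in PSPC1-Y523F, and 1 and 1 in PSPC1-Y523F/PTK6. The counts were 1 and 2 for the library labelled PSPC1-CT131, 1 and 1 for that labelled Mut-NLS-CT131, and 0 and 0 with HGF. From 17 to 20 were compared, with medians of -0.21 to 0.07. ACACB, the acetyl-CoA carboxylase of the mitochondrial surface, was at 20.6 FPKM in SK-hep1 mock, 10.0 with PSPC1, 6.20 with PSPC1/PTK6, 16.2 with PSPC1-Y523F and 9.64 with PSPC1-Y523F/PTK6. It was highest in mock, where its paralog ACACA was second to PSPC1. FADS3 was at 32.6, 43.3, 71.3, 25.7 and 82.8 FPKM, and was high in both PTK6 libraries. SCD5, a paralog of SCD, was at 9.36, 4.42, 4.27, 4.58 and 13.1 FPKM in SK-hep1 cells and at most at 0.206 FPKM in the other lines. MID1IP1, a paralog of THRSP that promotes the polymerization of ACACA, was at 66.2 to 84.8 FPKM in SK-hep1 cells and up to 161 in Huh-7 cells, where THRSP had at most 1 read. ELOVL5 was at 50.4 to 78.1 FPKM in SK-hep1 cells, and ACSS1, the mitochondrial paralog of ACSS2, was lower than mock by -0.97 in PSPC1 and -1.39 in PSPC1-Y523F.

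Of the 20 genes of fatty acid activation, triglyceride synthesis and droplets, 1 was higher and 0 lower in PSPC1, 3 and 0 in PSPC1/PTK6, 0 and 1 in PSPC1-Y523F, 2 and 1 in PSPC1-Y523F/PTK6, 3 and 2 in the library labelled PSPC1-CT131, 1 and 0 in that labelled Mut-NLS-CT131, and 1 and 1 with HGF. From 15 to 18 were compared, with medians of -0.03 to 0.10. ACSL3, which activates long-chain fatty acids, was lower by -1.06 in PSPC1-Y523F. The droplet protein CIDEC was higher by 0.94 and the fatty acid carrier FABP5 lower by -0.60 with HGF. LPIN1 was lower by -0.67 in the library labelled PSPC1-CT131. The acyltransferases GPAM and DGAT2 were at 32.0 and 43.0 FPKM in untreated Huh-7 cells and at most at 2.34 and 2.57 in SK-hep1 cells, and ACSL5 was at most at 0.887 FPKM there.

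Of the 16 genes of fatty acid oxidation, the opposite pathway, 2 were higher and 1 lower in PSPC1, 1 and 0 in PSPC1/PTK6, 0 and 2 in PSPC1-Y523F, 1 and 0 in PSPC1-Y523F/PTK6, 0 and 1 in the library labelled PSPC1-CT131, 2 and 0 in that labelled Mut-NLS-CT131, and 1 and 0 with HGF. Of the list 14 or 15 were compared, with medians of -0.19 to 0.21. ACADVL was higher by 0.82 in PSPC1 and 0.89 in PSPC1/PTK6, and ACADM lower by -0.65 in PSPC1, -0.89 in PSPC1-Y523F and -1.25 in the library labelled PSPC1-CT131. CPT1A, the gate of mitochondrial import, was at 14.2 to 22.3 FPKM in SK-hep1 cells and at 2.23 and 4.60 FPKM in untreated and HGF-treated Huh-7 cells, a difference of 0.78. Of 7 genes of AMPK, the kinase that inhibits ACACA, which are its subunits and the upstream kinase STK11, 0 to 1 were higher and 0 to 1 lower in each of these comparisons, among them PRKAB1 at -0.89 in PSPC1/PTK6, with medians of -0.26 to 0.12.

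The 14 genes of cholesterol synthesis and uptake are known to be controlled by SREBP-2. Against mock, 4 were higher and 0 lower in PSPC1, with a median of 0.46 over the 13 compared, 1 and 1 in PSPC1/PTK6, with a median of -0.01, 0 and 1 in PSPC1-Y523F, with a median of -0.25, and 4 and 0 in PSPC1-Y523F/PTK6, with a median of 0.51. Between PSPC1-Y523F and PSPC1, 8 of 13 were lower and 0 higher, with a median of -0.81 beside that of -0.64 for the members. Of all 12389 genes, 9.23% were lower and 8.77% higher there. HMGCS1 was at 19.8, 31.0, 30.3, 12.9 and 26.0 FPKM in the SK-hep1 libraries. In Mahlavu cells 1 was higher and 4 lower for the library labelled PSPC1-CT131, with HMGCS1 at -1.30, and 2 were higher and 0 lower for that labelled Mut-NLS-CT131. With HGF no gene of the list was counted.

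The genes whose pattern was most like that of FASN were AKAP8L, UBE2R2, NR1D1, CHCHD6 and WDTC1, by Pearson's r of log2 values over the 8 SK-hep1 and Mahlavu libraries after the mean of each line was taken out. Their r was 0.96, 0.95, 0.95, 0.94 and 0.94, the highest of 9397 genes. Among the members SCD came nearest to FASN, with r of 0.79 and rank 156, followed by ACACA at 0.58 and FADS1 at 0.52, while ME1 was at -0.16. The member pairs with the highest r were ELOVL6 with ACSS2 at 0.86, ACLY with ACSS2 at 0.81, and FASN with SCD and SCD with ACSS2, both at 0.79, and the lowest was FADS2 with ME1 at -0.75. These are descriptions over 8 libraries that share 2 mocks and 1 normalization.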

How the data were processed

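Counts per gene and FPKM were deposited by the authors for the 8 SK-hep1 and Mahlavu libraries, and FPKM only for the 2 Huh-7 libraries. Per the labels, poly-A RNA was selected, while the paper names rRNA depletion. The submitters' processing notes name TopHat2 2.0, HTSeq 0.6.1, edgeR and GRCh38.p12, and the listed positions were those of GENCODE 29 for 97.6% of the shared genes. The gene length column deposited by the authors was the longest transcript for 97.8% of genes, but their FPKM used the mean transcript length, within 1 base for 93.8% of 30118 genes. Up to 8 broken annotation lines per table, which name no gene, were left out. In Huh-7, 100% of FPKM were whole reads within 0.01, which gave the read totals.

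FPKM were quantile normalized over the 8 libraries and over both Huh-7 libraries, 1 was added, and log2 differences were taken where the mean of both libraries reached 1 FPKM, and counted at 1.5-fold. Fold changes on this scale understate those of low genes. Intervals for differences were exact binomial (Clopper-Pearson) and for levels exact Poisson, both 95%, and a floor was 3 reads. Reads carry no molecular identifiers. With 1 library per condition no count test was run. The members, 7 further gene lists and 5 marker lists were chosen with earlier results of these data known. The genes named are the members, 21 fixed regulators and enzymes, the largest counted rise and fall of each list against control with a mean of at least 5 FPKM, and the 5 genes most like FASN. Some of these are not reported here. Alternatives were deposited FPKM without quantile normalization, 0.1 or 5 in place of the added 1, FPKM scaled to the same sum, TMM-scaled counts, quantile normalization within a line, no filter, a mean of at least 5 FPKM, a 2-fold threshold, and GC content and length taken out by a quadratic fit. Calculations were tested on simulated data and used Python 3.11.15, numpy 2.4.6, pandas 2.3.3, scipy 1.17.1, matplotlib 3.10.9, R 4.3.3 and edgeR 4.0.16.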

Additional observations from a re-analysis of the deposited data

Results flagged for a closer look

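The change with PTK6 went opposite ways on PSPC1 and on PSPC1-Y523F in SK-hep1 cells for 3 genes whose counting intervals left out 0 in both. Without regard to the intervals, signs were opposite in 4 of 9 members, or 44.4%, and in 39.3% of all 12443 genes, which is near. The share of all genes that meet the rule with intervals is not given, so the count of 3 is not a result about the members. The change on PSPC1-Y523F minus that on PSPC1 was 1.39 on the log2 scale for ACSS2, 0.96 for FASN and 0.86 for SCD. Each value rests on 4 libraries of 1 condition each, so the difference was not tested. No group held the 4 samples that a check for a library far from its group needs.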

How the results depend on the processing

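No paired analysis was possible because each condition has 1 library, and no replicate could be left out. Of 36 member differences of at least 1.5-fold, 23 stayed past it under every alternative that kept the threshold and gave a value, and all 36 kept their sign there. Over all member differences, counted or not, 835 of 880 values from the alternatives had the same sign. Without quantile normalization, the median of all genes shifted by 0.19 in PSPC1/PTK6 against mock, 0.22 against PSPC1, -0.29 in PSPC1-Y523F/PTK6 against PSPC1/PTK6, -0.26 and -0.14 in the library labelled PSPC1-CT131 against mock and against that labelled Mut-NLS-CT131, and -0.46 in SK-hep1 against Mahlavu mock. With FPKM scaled to the same sum these were 0.19, 0.23, -0.31, -0.28, -0.15 and -0.53, with -0.10 in PSPC1-Y523F/PTK6 and -0.11 for the library labelled Mut-NLS-CT131 against mock. The 2-fold threshold moved the number of members counted to 1 in PSPC1/PTK6, 0 in PSPC1-Y523F and 1 in PSPC1-Y523F/PTK6 against mock, 1 and 2 with PTK6 added to PSPC1 and to PSPC1-Y523F, 2 in PSPC1-Y523F against PSPC1, and, for the library labelled PSPC1-CT131, 1 against mock and 0 against that labelled Mut-NLS-CT131. A pseudocount of 5 gave 1 in PSPC1/PTK6 and 1 in PSPC1-Y523F/PTK6 against mock, 1 and 1 with PTK6 added to PSPC1 and to PSPC1-Y523F, and 0 between the libraries labelled PSPC1-CT131 and Mut-NLS-CT131. FPKM as deposited and FPKM scaled to the same sum each gave 4 in PSPC1/PTK6 against mock and 1 in PSPC1-Y523F/PTK6 against PSPC1/PTK6. TMM-scaled counts gave 2 in PSPC1 against mock, 4 and 7 with PTK6 added to PSPC1 and to PSPC1-Y523F, and 1 in PSPC1-Y523F/PTK6 against PSPC1/PTK6. A mean of at least 5 FPKM gave 1 in PSPC1/PTK6 against mock and 1 with PTK6 added to PSPC1, since ME1 was then left out. GC content and length taken out gave 2 in PSPC1 against mock and 1 in PSPC1-Y523F/PTK6 against PSPC1/PTK6. Beyond the construction of a setting, the cause was not tested. TMM and quantile normalization within a line were not run for Huh-7. Depth limits ME1 in SK-hep1 cells and THRSP in every library.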
